A study of Homo sapiens with 6 samples.

Results

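Inositol trisphosphate (IP3) is the soluble messenger that phospholipase C releases from a membrane lipid when receptors at the cell surface are engaged. It opens IP3 receptors, which are calcium channels of the endoplasmic reticulum, and calcium flows from this store into the cytosol. The signal ends when IP3 3-kinases add a phosphate to the messenger or when a 5-phosphatase removes one, and other kinases carry the products on to higher inositol phosphates. The 9 genes followed here were chosen by symbol from the 30270 genes of the count table and comprise the IP3 3-kinases ITPKA, ITPKB and ITPKC, the inositol phosphate multikinase IPMK, the inositol trisphosphate kinase ITPK1, the 5-phosphatase INPP5A and the receptors ITPR1, ITPR2 and ITPR3. The set was drawn up because ITPKB was nearly absent from 1 group, and the question was whether its paralogs take its place.

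The libraries were made from rRNA-depleted total RNA of HEK 293T cells, an embryonic kidney line that carries the SV40 large T antigen. No treatment is given for any of them. There were 3 wild-type (WT) libraries and 3 with the genotype TENT3A/B knockout, in which the uridylyltransferases TUT4 (TENT3A) and TUT7 (TENT3B) were deleted (ΔTUT4/7). All libraries came from cells kept in serum-containing medium and are labelled as biological replicates of 1 line each. The ΔTUT4/7 line was made in another laboratory, and whether it is a single clone is not given in the sources used here.

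Totals ran from 18757228 to 33148937 estimated counts per library. TUT4 rose from 211 ± 5.08 CPM (counts scaled to a common library total, mean ± SD, n = 3) in WT to 906 ± 21.4 CPM, and TUT7 fell from 62.6 ± 2.17 to 26.3 ± 1.04 CPM. The TUT4 count thus goes against the label, although a count summed over a gene does not show whether an intact transcript was made. Higher and lower therefore refer to libraries by their labels, ΔTUT4/7 compared with WT. The 4 markers of HEK 293T cells given here (PAX2, EYA1, LIN28B and NEFL) had between 1.29 and 364 CPM in every library. Their levels differed between the groups, and PAX2 was low in both. NEFL had 339 to 364 CPM in WT and 104 to 107 CPM in ΔTUT4/7, and PAX2 had 1.81 to 2.39 and 1.29 to 1.63 CPM. LIN28B had 136 to 147 and 120 to 126 CPM, whereas EYA1 had 14.6 to 16.6 and 23.4 to 26.6 CPM. Of 5 markers of blood, endothelial or liver cells, PECAM1, ALB and CD68 had at most 0.419 CPM. PTPRC and CD3E were looked up but were not listed among the counted genes, so no level is given.

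ITPKB (chromosome 1, 226631690 to 226739323, minus strand, hg38) was the major IP3 3-kinase gene of WT cells and was nearly absent from the libraries labelled ΔTUT4/7. The encoded enzyme turns IP3 into inositol tetrakisphosphate and is known from the development of lymphocytes. ITPKB had 808, 962 and 1132 counts in WT replicates 1, 2 and 3 (41.1, 37.0 and 36.9 CPM). It had 0, 1 and 2 counts in ΔTUT4/7 replicates 1, 2 and 3. Over each group this was 2902 counts against 3, which left 0.111% of the WT level. The ratio of the scaled sums was 900, with an exact 95% interval of 308 to 4368 that covers counting error only. These values led to the choice of the gene set and are given as a description, without a test. Among the 23952 genes tested, 80 (0.334%) averaged 1 CPM or more in WT while their ΔTUT4/7 counts summed to no more than 3. That limit equals the sum of ITPKB itself, and the 23952 include genes below 1 CPM in WT, so the share is a description only. ENPP2 and CYBA, described below, fell outside it with 5 and 11 counts over the ΔTUT4/7 libraries.

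The surroundings of ITPKB did not fall to the same degree. The nearest expressed gene on each side, with a mean of at least 50 counts, was STUM (chromosome 1, 226548764 to 226609230) and PSEN2 (226870184 to 226927726). STUM fell from 3.23 ± 0.155 to 1.56 ± 0.122 CPM (adjusted p 0.000102 in edgeR), whereas PSEN2, a presenilin gene, rose from 18.4 ± 1.47 to 23.7 ± 1.26 CPM (adjusted p 0.000856). Over the 20 nearest expressed genes the median of the log2 fold changes was -0.43 and the range was -1.75 to 0.42, against a fitted -9.66 for ITPKB. Most of these 20 genes were lower: 15 were called lower in ΔTUT4/7, 2 were called higher and 3 were not called. Over all genes tested 29.0% were called lower, and 35.9% in a refit with a minimum mean count of 50. ITPKB-IT1 (226656640 to 226675067), a noncoding RNA inside ITPKB on the same strand, had 0, 6 and 7 counts in the WT libraries and 0 in each ΔTUT4/7 library. It was below the count filter and was not tested.

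The genes closest to ITPKB over all 6 libraries, by Euclidean distance between log2 CPM values, were ENPP2 (distance 1.17), H3C7 (1.89), CT45A6 (2.04), SLC7A3 (2.17) and CYBA (2.29). ENPP2, which encodes autotaxin, went from 31.8 ± 1.21 CPM to 0.0785 ± 0.110 CPM. CYBA, a subunit of NADPH oxidase, went from 23.0 ± 1.44 to 0.168 ± 0.122 CPM. H3C7, CT45A6 and SLC7A3 had no counts in ΔTUT4/7. The distances only describe these libraries. H3C7 and CT45A6 belong to families with near-identical copies, and whether reads were divided among the copies was not tested; CT45A6 had fractional counts and H3C7 whole ones.

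The promoters of the 3 IP3 3-kinase genes are shown because 1 of these paralogs was lost and the others were not. They span 250 bases before to 50 bases after the RefSeq start, 5′ to 3′, and capitals mark the GC box (GGGCGG on either strand).
ITPKA: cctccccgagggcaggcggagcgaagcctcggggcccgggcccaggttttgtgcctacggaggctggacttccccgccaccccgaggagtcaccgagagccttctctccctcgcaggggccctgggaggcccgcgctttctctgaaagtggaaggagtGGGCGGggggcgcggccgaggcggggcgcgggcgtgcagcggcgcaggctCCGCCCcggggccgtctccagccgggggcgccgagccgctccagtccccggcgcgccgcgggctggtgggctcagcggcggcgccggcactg
ITPKB: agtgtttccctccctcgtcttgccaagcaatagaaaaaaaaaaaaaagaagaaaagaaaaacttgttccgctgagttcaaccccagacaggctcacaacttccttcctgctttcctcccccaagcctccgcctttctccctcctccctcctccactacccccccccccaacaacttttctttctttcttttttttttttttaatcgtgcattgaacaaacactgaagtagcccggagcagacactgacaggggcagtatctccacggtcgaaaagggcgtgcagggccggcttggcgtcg
ITPKC: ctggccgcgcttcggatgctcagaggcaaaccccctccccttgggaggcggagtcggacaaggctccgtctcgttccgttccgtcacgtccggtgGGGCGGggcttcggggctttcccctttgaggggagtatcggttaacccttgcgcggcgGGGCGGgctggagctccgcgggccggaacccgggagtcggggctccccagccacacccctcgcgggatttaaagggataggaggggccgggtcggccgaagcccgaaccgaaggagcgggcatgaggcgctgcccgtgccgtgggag
In GRCh38.p14, which has the coordinates of hg38, these are chr15:41493624-41493923 (plus strand), chr1:226739233-226739532 (minus strand) and chr19:40716862-40717161 (plus strand). The ITPKA window lies wholly within the span of the counted gene, which starts at 41493393. Its letters are therefore not those before that annotated start. Of the 3, the ITPKB promoter was the least rich in CpG, with 11 CpG dinucleotides and a GC content of 50%, while ITPKA had 38 and 78.0% and ITPKC had 34 and 70.7%. At least as many CpG as in ITPKB were found in 54.7% of the 35116 promoters of the RefSeq table, against 9.91% for ITPKA and 15.6% for ITPKC. The GC box was found 2 times each in ITPKA and ITPKC and had no match in ITPKB. It occurs in 45.0% of all promoters. CCAAT (34.6% of all promoters) and TATAAA (11.5%), searched on both strands, had no match in any of the 3. Such matches describe the letters of the window and do not show a bound factor. Promoters of 7 of the 9 genes were in the table, all but INPP5A and ITPR2. ITPR1, which did not change detectably, had 19 CpG and no GC box. ITPK1, which was higher in ΔTUT4/7, had 1 promoter with 6 CpG and no GC box and another with 43 CpG and 4 GC boxes. ITPR3, which was lower, had 33 CpG and 3 GC boxes, and IPMK, not called, had 43 and 3. Whether these letters go with the changes was not tested.

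To examine whether the paralogs took over, ITPKA and ITPKC were compared between the groups, and neither was detectably higher. ITPKC (chromosome 19, 40717112 to 40740860), the widely expressed member of the family, had 12, 8.50 and 9.72 CPM in the WT libraries and 9.86, 9.90 and 10.5 CPM in those labelled ΔTUT4/7. The ΔTUT4/7 values lay inside the WT range. In edgeR the log2 fold change of ITPKC was 0.01 (SE 0.12, adjusted p 0.960), and its 95% interval ran from -0.24 to 0.26, a rise of at most 1.20-fold. The sign of this small value turned under other scalings, where ITPKC was not called either. ITPKA (chromosome 15, 41493393 to 41503551), a mostly neuronal member that also binds actin, was barely detected. It had 25, 26 and 34 counts in WT and 38, 19 and 18 in ΔTUT4/7, that is 1.27, 1.00 and 1.11 CPM against 1.19, 0.979 and 0.919 CPM. The groups overlapped, and the log2 fold change of -0.10 ± 0.28 (adjusted p 0.769 in edgeR) had a 95% interval of -0.68 to 0.47, a rise of at most 1.38-fold.

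**Figure D1:**
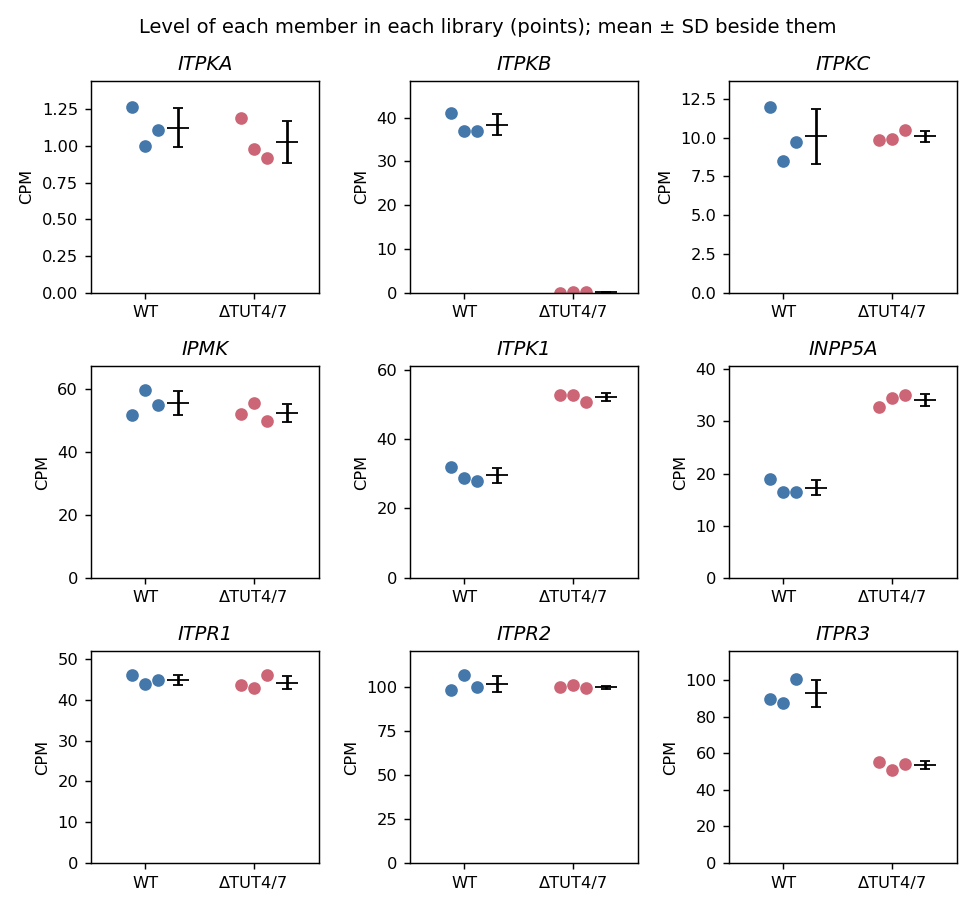
Level of each of the 9 genes in CPM (linear axes from 0) in the 3 WT and 3 ΔTUT4/7 libraries, with the mean ± SD drawn beside the points. ITPKB is at 36.9 to 41.1 CPM in WT and at most 0.102 CPM in ΔTUT4/7, ITPK1 and INPP5A are higher in ΔTUT4/7, ITPR3 is lower, and the points of the other 5 genes overlap between the groups.

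Levels of different genes were compared per kb of exon, that is, CPM divided by the length of all annotated exons of the gene. On this scale ITPKB stood at 5.42 ± 0.341 CPM per kb in WT (SD, n = 3), ITPKC at 2.98 ± 0.529 and ITPKA at 0.539 ± 0.0656. ITPKB thus made up 58.3%, 63.6% and 60.5% of the summed IP3 3-kinase level in WT replicates 1, 2 and 3, and at most 0.406% in a ΔTUT4/7 library. The summed level was 9.98, 8.23 and 8.63 CPM per kb in WT and 3.49, 3.41 and 3.56 CPM per kb in ΔTUT4/7, so 0.389 of the WT mean was left. This sum includes ITPKB and has no test. Without scaling for length the summed CPM in ΔTUT4/7 was 0.225 of that in WT, since ITPKB has longer exons than its paralogs.

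The loss of ITPKB amounted to 5.42 CPM per kb, while ITPKA plus ITPKC changed by -0.0475 CPM per kb. ITPKA plus ITPKC stood at 4.17, 3.00 and 3.41 CPM per kb in WT and at 3.49, 3.40 and 3.54 in ΔTUT4/7 (two-sided exact permutation p = 0.9, n = 3 per group, where the smallest possible p is 0.1). To hold the summed level at its WT mean, ITPKC would have had to rise 2.83-fold or ITPKA 11.1-fold, against upper bounds of 1.20-fold and 1.38-fold. ITPKC supplied 33.2% ± 2.53 of the summed level in WT and 85.7% ± 1.77 in ΔTUT4/7 without a detectable change of its own. COQ8B (chromosome 19, 40691514 to 40725784) overlaps ITPKC on the other strand, and whether reads were counted by strand is not given in the sources used here, so reads of the overlap cannot be told apart. COQ8B did not change detectably either (log2 fold change 0.07 ± 0.08, adjusted p 0.530 in edgeR; the sign turned under 2 other scalings).

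**Figure D2:**
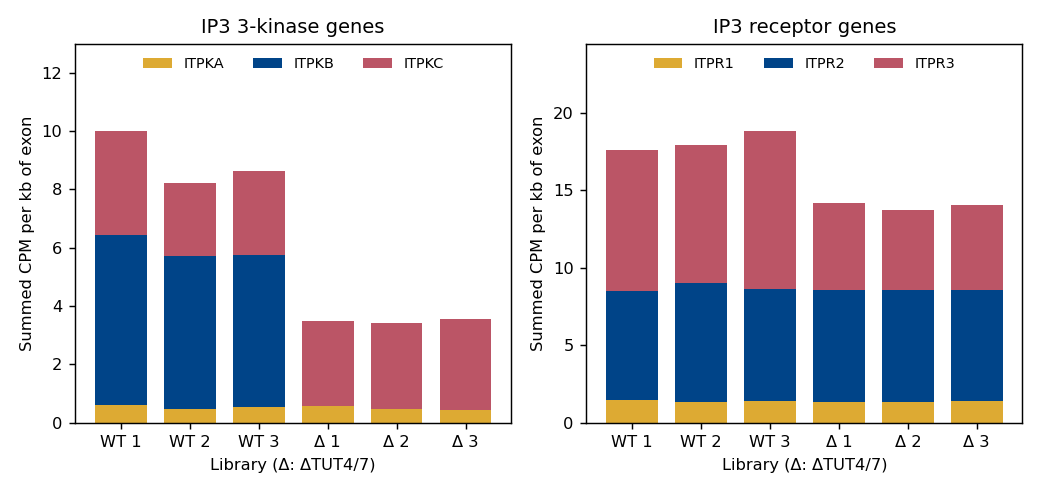
Stacked levels in CPM per kb of exon for the IP3 3-kinase genes (left) and the IP3 receptor genes (right) in each WT and ΔTUT4/7 library (Δ). The 3-kinase sum is 8.23 to 9.98 in WT and 3.41 to 3.56 in ΔTUT4/7, where nearly all of the lost part is ITPKB; the receptor sum is 17.6 to 18.8 against 13.7 to 14.2, where the lost part is ITPR3.

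Of the 8 genes other than ITPKB, all of which passed the count filter, 2 were higher and 1 was lower in ΔTUT4/7 at a false discovery rate under 0.05. Over all genes tested, 57.7% were called, 28.6% as higher and 29.0% as lower, so the 3 called genes of 8 do not exceed this background. By library size alone or upper-quartile scaling, 2 were higher and 3 lower. The median log2 fold change of the 8 genes was -0.02, the same as over all genes. The groups did not overlap for the same 3 genes, against 62.8% of all genes. None of the 8 changed by 2-fold or more, against 18.3% of all genes.

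The enzymes beside the IP3 3-kinases fell into 2 that rose and 1 that did not change detectably. INPP5A (chromosome 10, 132537787 to 132783480) encodes the 5-phosphatase that takes the competing route by removing a phosphate from IP3. It had 19.0, 16.4 and 16.5 CPM in WT and 32.8, 34.4 and 35.1 CPM in ΔTUT4/7, and all ΔTUT4/7 libraries were above all WT libraries. INPP5A rose by a log2 fold change of 0.98 ± 0.08 (adjusted p 4.08e-10 in edgeR), just under 2-fold. Among the 20 nearest expressed genes of INPP5A, 15 were called higher and 1 lower, and their median was 0.68. With that median taken off, the change of INPP5A was 0.30. The last bases of INPP5A overlap NKX6-2 on the other strand, a gene with under 1 CPM on average in either group.

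The level of INPP5A relative to the 3-kinases was set side by side because both act on the same messenger. In WT, INPP5A stood at 0.508, 0.532 and 0.513 of the summed 3-kinase level, and in ΔTUT4/7 at 2.52, 2.7 and 2.64. This includes ITPKB and has no test. Relative to ITPKA plus ITPKC alone, the ratio was 1.33 ± 0.125 in WT and 2.63 ± 0.0974 in ΔTUT4/7 (two-sided exact permutation p = 0.1, n = 3 per group, the smallest this design allows). These are ratios of mRNA levels, and neither enzyme activity nor IP3 was measured in these libraries.

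ITPK1 (chromosome 14, 92936914 to 93116320), a kinase of inositol trisphosphates on the route to higher inositol phosphates, had 31.9, 28.7 and 27.9 CPM in WT and 52.6, 52.8 and 50.7 CPM in ΔTUT4/7. The groups did not overlap, and ITPK1 rose by a log2 fold change of 0.82 ± 0.06 (adjusted p 4.08e-10 in edgeR). Its neighbours did not share this change, with a median of -0.03 over 20 genes. ITPK1-AS1, which lies within ITPK1 on the other strand, was at 2.25 ± 0.292 CPM in WT and 2.69 ± 0.780 CPM in ΔTUT4/7 and was not called.

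IPMK (chromosome 10, 58191517 to 58267894), a kinase of broad specificity that can also phosphorylate IP3, had the highest level per kb of exon among the 5 kinases of the set in both groups. Per kb of the canonical transcript, IPMK (8.6 ± 0.479) and ITPK1 (8.41 ± 0.184) overlapped in range in ΔTUT4/7. IPMK had 51.8, 59.5 and 55.0 CPM in WT and 51.9, 55.5 and 49.7 CPM in ΔTUT4/7, and the groups overlapped. The log2 fold change was -0.08 ± 0.06 (adjusted p 0.262 in edgeR), with a 95% interval of -0.21 to 0.05 that allows a rise of at most 1.03-fold. IPMK was called lower under library-size scaling (-0.20), upper-quartile scaling (-0.18) and a minimum mean count of 50 (-0.15), each of which moved the median of the genes it tested down by 0.07 to 0.11 from the value of the same genes in the fit reported, and relative to that shift it stayed at -0.08. Its neighbours had a median of 0.37.

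**Figure D3:**
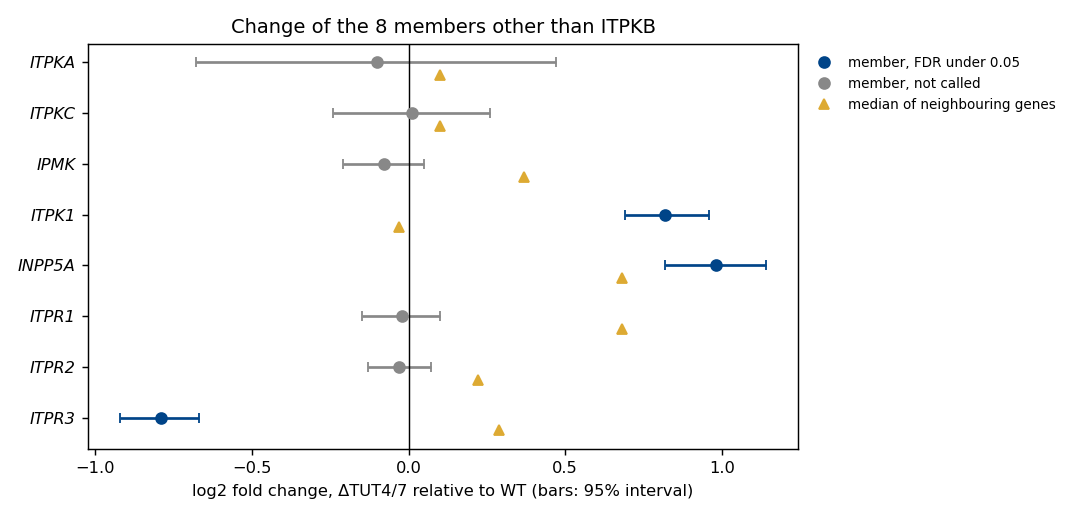
Log2 fold change between WT and ΔTUT4/7 (positive when higher in ΔTUT4/7) of the 8 genes other than ITPKB, with 95% intervals from edgeR, and the median log2 fold change of the nearest expressed genes of each (triangles). ITPK1 (0.82) and INPP5A (0.98) lie above 0, ITPR3 (-0.79) lies below, and the other 5 intervals span 0; the neighbours of INPP5A and ITPR1 both have a median of 0.68.

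Of the 3 IP3 receptor genes, ITPR3 fell and the others did not change detectably. ITPR3 (chromosome 6, 33620365 to 33696574), the receptor typical of epithelial and secretory cells, had 90.0, 87.5 and 101 CPM in WT and 55.4, 51.0 and 54.1 CPM in ΔTUT4/7. Every ΔTUT4/7 library was below every WT library, and the log2 fold change was -0.79 ± 0.06 (adjusted p 2.24e-10 in edgeR), which left 0.576 of the WT level. The nearest expressed genes had a median of 0.29, on the other side of 0. UQCC2 overlaps the end of ITPR3 on the other strand, at 51.8 ± 1.52 CPM in WT and 46.2 ± 2.07 CPM in ΔTUT4/7 (log2 fold change -0.16 ± 0.06, adjusted p 0.0222, a call that did not hold without WT replicate 1 or without ΔTUT4/7 replicate 2 or 3, where the adjusted p lay between 0.0571 and 0.0815).

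ITPR2 (chromosome 12, 26335352 to 26833194), known as the main receptor of heart muscle and liver, had 98.1, 107 and 100 CPM in WT and 99.9, 101 and 99.3 CPM in ΔTUT4/7. Its log2 fold change was -0.03 ± 0.05 (adjusted p 0.673 in edgeR, 95% interval -0.13 to 0.07), and ITPR2 was called lower with library-size scaling (-0.14, adjusted p 0.0202) and upper-quartile scaling (-0.13, adjusted p 0.0335). ITPR1 (chromosome 3, 4493345 to 4847840), the receptor best known from cerebellar neurons, had 46.2, 43.8 and 44.9 CPM in WT and 43.6, 43.0 and 46.1 CPM in ΔTUT4/7. The groups overlapped for both genes. The log2 fold change of ITPR1 was -0.02 ± 0.06 (adjusted p 0.752 in edgeR, 95% interval -0.15 to 0.10), although its 16 nearest expressed genes had a median of 0.68. Neither receptor thus rose beyond 1.07-fold at the upper bound.

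Per kb of exon the receptors summed to 17.6, 17.9 and 18.8 in WT and 14.2, 13.7 and 14.1 in ΔTUT4/7, which is 0.772 of the WT mean (two-sided exact permutation p = 0.1, n = 3 per group, the smallest possible). ITPR3 was the largest part in WT, at 51.8%, 49.5% and 54.3%, and ITPR2 was the largest in ΔTUT4/7, at 50.7%, 52.6% and 50.8%. ITPR3 then supplied 38.8% ± 1.05. ITPR1 made up 7.74% ± 0.379 in WT and 9.85% ± 0.316 in ΔTUT4/7, but these shares rest on an exon length of 32120 bases that includes many rare exons. With the canonical transcript of 9908 bases, a choice made after the values were seen, ITPR1 made up 19.9% ± 0.841 and 24.4% ± 0.654, and the same receptor led in each group.

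In order of level per kb in WT, ITPR3 (9.40 ± 0.727) and IPMK (9.09 ± 0.629) came first and overlapped in range. They were followed by ITPR2 (7.31 ± 0.328), ITPKB (5.42 ± 0.341), INPP5A (4.62 ± 0.387), ITPK1 (4.34 ± 0.308), ITPKC (2.98 ± 0.529), ITPR1 (1.40 ± 0.0361) and ITPKA (0.539 ± 0.0656). Of these neighbours in the order, INPP5A and ITPK1 also overlapped. In ΔTUT4/7, INPP5A came first (9.12 ± 0.317), overlapped in range with IPMK (8.60 ± 0.479), and was followed by ITPK1 (7.66 ± 0.168), ITPR2 (7.19 ± 0.0442), ITPR3 (5.42 ± 0.231), ITPKC (2.98 ± 0.101), ITPR1 (1.38 ± 0.0505), ITPKA (0.491 ± 0.0668) and ITPKB. With canonical transcript lengths ITPR1 stood above ITPKC, at 4.54 ± 0.117 CPM per kb in WT and 4.46 ± 0.164 in ΔTUT4/7. IPMK and ITPK1 then overlapped in range in ΔTUT4/7.

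The rest of the pathway was followed with 71 genes in 4 lists, of which 66 were tested. Here 30 genes (45.5%) were higher and 18 (27.3%) were lower in ΔTUT4/7, beside 28.6% and 29.0% over all genes, and the median log2 fold change was 0.15. The excess of higher genes depended on the scaling and was smaller under 2 others. By library size alone 20 of the 66 were higher and 21 lower, beside 23.2% and 34.5% of all genes. By upper-quartile scaling 21 of the 66 were higher and 21 lower, beside 23.9% and 33.9%. In both, the share of higher genes stayed above that of all genes and the share of lower genes below it. The excess also depended on the count filter, since genes with few counts are seldom called. With a minimum mean count of 50, 24 pathway genes were higher and 17 lower, beside 35.5% and 35.9% of all genes that reached it. Fewer than 66 pathway genes reached that minimum. Among 19 tested genes upstream of IP3, 7 (36.8%) were higher and 4 (21.1%) lower, with a median of 0.16. PLCD3, a phospholipase C, rose by 0.61 ± 0.08 on the log2 scale, and PIP5K1A, which makes the lipid that phospholipase C cleaves, rose by 0.50 ± 0.04. PLCL1, a phospholipase C relative without catalytic activity that binds IP3, fell from 9.16 ± 0.513 to 1.48 ± 0.137 CPM, and PLCG2 fell from 20.6 ± 0.947 to 13.6 ± 0.810 CPM. PIP5K1B, named after its values were seen, rose 2-fold or more from 0.384 CPM to 1.6 CPM on average.

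Of 5 tested kinases that build higher inositol phosphates, 4 were higher and 1 lower, with a median of 0.23. IP6K1, which makes inositol pyrophosphates, rose from 48.6 ± 2.05 to 118 ± 5.31 CPM (1.29 ± 0.05 on the log2 scale). IPPK, the kinase that completes inositol hexakisphosphate, rose by 0.45 ± 0.09, and PPIP5K1, another pyrophosphate kinase, fell by 0.28 on the log2 scale (SE 0.07). Of 21 phosphatases and inositol synthesis genes, 11 (52.4%) were higher and 8 (38.1%) lower, with a median of 0.16. NUDT4 and NUDT11, which cleave inositol pyrophosphates, rose by 0.76 ± 0.05 and 0.67 ± 0.06.

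The lipid phosphatase gene INPP5D (SHIP1), best known from blood cells, had 228, 298 and 337 counts in WT and 6 counts in each ΔTUT4/7 library, a log2 fold change of -5.45 ± 0.21. INPP4B, another lipid phosphatase gene, fell from 10.7 ± 0.826 to 2.07 ± 0.259 CPM. These were the only 2 genes of that list lower by 2-fold or more. Like ITPKB, both were expressed in all WT libraries, and unlike ITPKB both kept at least 6 counts in every ΔTUT4/7 library.

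Of 21 tested receptor regulators and calcium store genes, 8 (38.1%) were higher and 5 (23.8%) lower, beside 28.6% and 29.0% over all genes, with a median of 0.11. RYR2, the ryanodine receptor of heart muscle and the other kind of calcium release channel, rose from 8.40 ± 0.327 to 37.6 ± 0.860 CPM (2.16 ± 0.08 on the log2 scale). RYR1 and RYR3 were not called. Among the genes of calcium entry, the channel subunit ORAI1 rose from 4.31 ± 0.466 to 7.58 ± 0.707 CPM, ORAI3 fell from 7.21 ± 0.770 to 3.34 ± 0.767 CPM, and the store sensor STIM2 fell by 0.45 on the log2 scale (SE 0.06). IRAG1, named after its values were seen, was also lower by 2-fold or more (-1.60 ± 0.56, adjusted p 0.0193 in edgeR), a call that was lost without ΔTUT4/7 replicate 1 (adjusted p 0.0927) or 2 (0.0544) and in DESeq2 (0.0669).

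**Figure D4:**
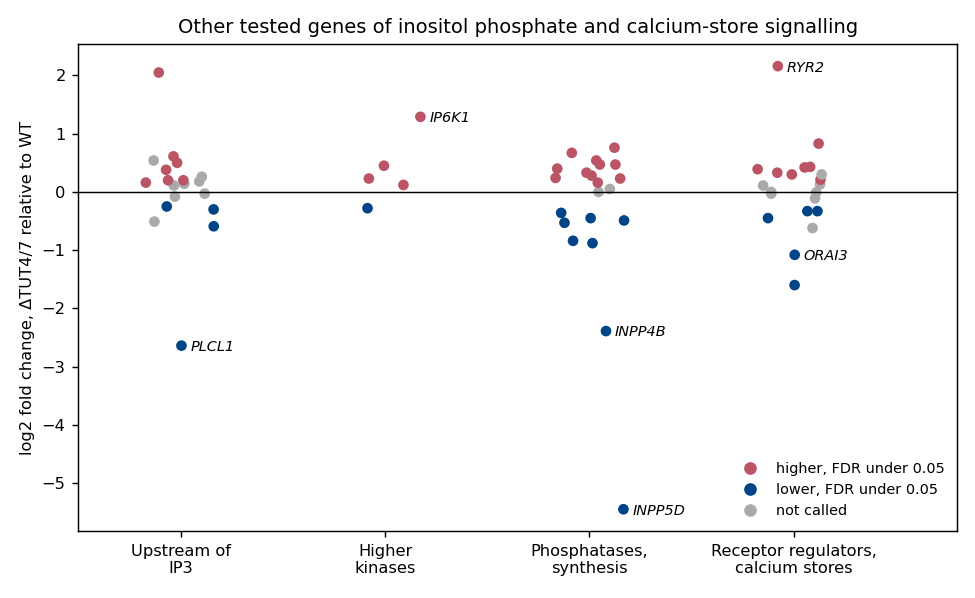
Log2 fold change between WT and ΔTUT4/7 (positive when higher in ΔTUT4/7) of the 66 other tested genes, grouped by role (horizontal positions within a group are arbitrary), with color for the edgeR call. Most values lie within 1 of 0; INPP5D (-5.45), PLCL1 (-2.64) and INPP4B (-2.39) lie lowest, and RYR2 (2.16), PIP5K1B (2.05) and IP6K1 (1.29) lie highest.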

How the data were processed

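Per the study's methods and the submitters' processing notes, the authors mapped read pairs with STAR 2.7.3a (hg38, Ensembl transcripts) in Partek Flow 10.0.22, and the deposited table holds estimated counts per gene. Between 45.2% and 50.0% of a library's values were fractions, so reads that match several genes can be split between them. The table is named for Partek's E/M quantification to an annotation model, whose settings are not given in the sources used here. The authors' own comparison table (p-values, ratios, fold changes, group means) was not used. Stop positions lay 1 base past the GENCODE release 44 end for 19864 of 21633 genes matched by symbol and chromosome, and ends are printed with that base taken off.

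Counts were rounded, and 23952 genes with a largest count above 12 were tested with edgeR 4.0.16 (R 4.3.3; TMM, robust quasi-likelihood, no covariates), and p-values were adjusted over all of them by Benjamini-Hochberg. Standard errors come from the F statistic. The 6318 genes left out held 0.0962% of counts. CPM refers to TMM-scaled library sizes. Tested on simulated data (23952 genes, 200 changed), this fit recovered 97.7% of 2-fold and 99.1% of 4-fold changes. Far more genes, 13813 of 23952, were called in the real libraries, so these rates need not hold for them. No separate rate is given for genes with few counts, such as ITPKA, so these rates cannot be applied to that gene. Neighbours are the 10 nearest genes on each side with a mean count of 50 or more, where the chromosome held as many. Log2 CPM for distances used a prior count of 2. Nothing states how separately the replicates were grown, so p-values measure the spread between these libraries. Promoters are from RefSeq (GRCh38.p14).

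The 9 genes and the pathway lists were chosen with earlier results of these data known. Genes named in the lists are the 2 that rose most and the 2 that fell most of those called, if they averaged at least 50 counts; genes that overlap one of the 9, and the 5 closest to ITPKB in pattern, were also examined. Of the 14 overlapping genes 12 were tested and 1, UQCC2, was called; 3 of the 14 (Y_RNA, Metazoa_SRP and SNORA75) are symbols shared by many loci. Alternatives were other scalings, count filters and tests (DESeq2 1.42.0, limma-voom and limma on log2(CPM + 1) in limma 3.58.1), a replicate block, each library left out, neighbours subtracted and other gene lengths. Beyond the 4 markers of the cell line that are given, a further one is not reported here.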

Additional observations from a re-analysis of the deposited data

How the results depend on the processing

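INPP5A, ITPK1 and ITPR3 kept their direction and their calls in all 15 refits, with log2 fold changes of 0.87 to 1.04, 0.71 to 0.87 and -0.91 to -0.73. With neighbouring genes subtracted the 3 were 0.30, 0.86 and -1.09. The number of the 8 genes called lower was 1 in the fit reported and rose to 3 with library size alone, to 3 with upper-quartile scaling and to 2 with a minimum mean count of 50. The added genes were IPMK and, in the first 2, ITPR2, and library size alone moved the median of all genes by -0.11. ITPKC, near 0 throughout and never called, turned to -0.11 with library size alone, -0.09 with upper-quartile scaling, -0.06 with the higher minimum and -0.09 with neighbours subtracted, and ran from -0.10 to 0.14 with 1 library left out. ITPR2 was 0.01 without WT replicate 2, and COQ8B was -0.05 and -0.04 under the first 2 scalings. The fitted change of ITPKB depends on how 3 counts are treated and ran from -10.62 to -5.23. The summed 3-kinase level in ΔTUT4/7 was 0.225 of WT without length scaling, against 0.389 with it, 0.366 with canonical transcripts (chosen after seeing the data) and 0.374 to 0.413 with 1 library left out. Same-numbered libraries of the 2 groups showed no common deviation (r across genes 0.0516, -0.0109 and -0.0222), and pairs with unlike numbers ran from -0.0900 to 0.0952. With 3 libraries per group this cannot show whether same-numbered libraries shared a culture or a preparation. A replicate block gave 2 higher and 1 lower gene of the 8 and 13678 called genes in all, against 13813. For ITPKA, with 18 to 38 counts per library, depth limits what can be seen.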
